A study of Mus musculus with 37 samples.

Results

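A set of 10 immediate early genes was followed in mouse lung, the EGR factors Egr1, Egr2 and Egr3, the FOS factors Fos, Fosb and Fosl2, the JUN factors Jun and Junb, and the companion genes Nr4a1 and Ier2. They were taken by symbol from the deposited count table, where all 10 were found among 24421 symbols. The set was chosen by measured values known from these data, namely fold changes of several of these genes in the radiation groups against mock. Comparisons between groups that use any of those libraries (each radiation group against mock, mock + NR against mock, silicon + NR against silicon) are therefore given as descriptions with no p for the 10 genes. The differences by sex and the variation within groups were tested in the same libraries, on a contrast that the choice of genes did not use. RNA of 37 C57BL/6 mice was sequenced, 1 library per mouse. The groups without NR were GCR (7 mice, 0.75 Gy of a simplified mixture of 5 ions that stands in for galactic cosmic radiation), gamma (5 mice, 0.75 Gy of gamma rays from a caesium source), silicon (7 mice, 0.75 Gy of silicon ions at 300 MeV per nucleon) and mock (7 mice, 0 Gy). Nicotinamide riboside (NR), a form of vitamin B3 from which cells make NAD, was given at 12 mM in the drinking water from before the exposure to 6 mice of the silicon + NR group and 5 of the mock + NR group. By the labels 22 mice were male and 15 female, and no allele beyond the strain is named. The sources used here give neither the age of the mice nor the interval from exposure to dissection.

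Immediate early genes are switched on within minutes of a signal such as a growth factor, stretch or tissue injury, without new protein synthesis, and their RNA is usually short-lived. MAP kinases act through serum response factor with its ELK partners at CArG boxes, and through CREB at cAMP response elements (CRE). FOS and JUN proteins pair to form AP-1, EGR proteins bind GC-rich sites, and handling of a tissue before its RNA is preserved is a known trigger of these genes.

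Of the 10 genes, 7 had an entry among the RefSeq promoter windows of the GRCm38.p6 build, each holding 250 bases before and 50 after a transcription start. Windows of 4 genes are printed, 3 with fold changes over mock above zero in all 3 radiation groups (Fos, Egr2 and Nr4a1) and Jun, whose fold changes were below zero. Capitals mark the motifs searched on both strands, which were the CArG box, the CRE TGACGTCA, its core TGACG, the AP-1 site TGANTCA and the EGR site GCGNGGGCG. The CRE holds this core, so the first is also counted in the second.
Fos promoter, chr12:85473640-85473939, plus strand: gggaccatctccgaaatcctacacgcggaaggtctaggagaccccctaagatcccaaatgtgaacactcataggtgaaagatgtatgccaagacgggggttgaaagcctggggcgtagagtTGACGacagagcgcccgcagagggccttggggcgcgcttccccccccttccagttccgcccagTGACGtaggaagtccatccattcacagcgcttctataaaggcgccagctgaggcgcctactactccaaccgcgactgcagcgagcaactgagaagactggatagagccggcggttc
Egr2 promoter, chr10:67537619-67537918, plus strand: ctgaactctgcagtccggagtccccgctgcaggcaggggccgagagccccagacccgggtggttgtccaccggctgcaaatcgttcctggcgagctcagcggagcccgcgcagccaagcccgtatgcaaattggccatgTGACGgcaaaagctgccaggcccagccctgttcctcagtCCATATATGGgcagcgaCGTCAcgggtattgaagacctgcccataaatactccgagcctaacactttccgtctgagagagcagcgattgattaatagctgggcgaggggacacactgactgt
Nr4a1 promoter, chr15:101266596-101266895, plus strand: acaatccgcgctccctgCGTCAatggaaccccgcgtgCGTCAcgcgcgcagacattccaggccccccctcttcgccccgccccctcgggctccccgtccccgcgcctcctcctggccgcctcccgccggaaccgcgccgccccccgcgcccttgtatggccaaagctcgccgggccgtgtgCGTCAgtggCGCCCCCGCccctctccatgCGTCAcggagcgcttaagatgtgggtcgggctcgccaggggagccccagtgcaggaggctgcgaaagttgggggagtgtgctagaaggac
Jun promoter, chr4:95052173-95052472, minus strand: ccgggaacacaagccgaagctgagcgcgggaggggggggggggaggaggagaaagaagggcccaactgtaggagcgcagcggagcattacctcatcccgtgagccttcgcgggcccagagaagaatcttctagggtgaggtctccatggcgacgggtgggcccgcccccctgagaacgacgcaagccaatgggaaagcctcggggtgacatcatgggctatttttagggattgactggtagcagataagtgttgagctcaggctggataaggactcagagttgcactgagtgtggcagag
The Egr2 window printed, 1 of 5 for that gene, held a CArG box 72 bases before the start and CRE cores 111 and 55 bases before it. Of the other windows of Egr2, 2 held a CArG box and CRE cores, 1 a CArG box and no CRE core, and 1 none of the motifs. The Fos window held CRE cores 129 and 66 bases before the start, and the Nr4a1 window held 4 CRE cores and 1 EGR site. No letters of the 5 motifs were found in the Jun window. A CArG box stood in 1 of the 7 genes and in 1.81% of all 27025 genes with a window, a CRE core in 5 of the 7 and in 23.05% of all genes, and an EGR site in 3 of the 7 and in 6.27%. The full CRE and the AP-1 site were in 0 of the 7, and in 2.03% and 8.97% of all genes. These matches describe letters in a window and not bound sites. The windows of the 7 genes held 56 to 72.3% G or C, against a median of 52.7% over all windows. The part of this in the motif counts was not tested.

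Total counts ran from 9485197 to 66381526 per library (median 28476462). Levels are given as counts per 1000000 (CPM) of a library's total. The pieces of lung differed in tissue. The 5 lung-defining genes were detected in every library, with a summed level of 31204 to 310102 CPM. Skeletal muscle RNA was abundant (Acta1 over 1000 CPM) in 13 libraries, none of them GCR or gamma. Heart muscle RNA was abundant in gamma replicates 3 and 4 (Nppa 17519 and 24514 CPM), ribosomal precursor RNA in GCR replicates 2, 5 and 6 and mock replicate 4, and lymphoid RNA in silicon replicates 3 and 6 and mock + NR replicate 4. In such bulk samples, fewer cells of a type and less RNA per cell cannot be told apart. In gamma replicate 5, labelled female, Xist (3.73 CPM) and Ddx3y of the Y chromosome (87.6 CPM) were within the range of the males, and the label was kept.

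All 10 genes passed the filter on low counts. Set per kilobase of exon, the mock levels spanned a wide range. Jun, a core partner in AP-1, was highest at 45.4 to 86.4 CPM per kilobase, followed by Ier2 at 28.6 to 79.1 and Junb at 21.8 to 46.2. Fos stood at 6.06 to 16.1, Nr4a1, an orphan nuclear receptor, at 3.68 to 15.1, Egr1 at 2.97 to 7.50 and Fosl2 at 2.78 to 3.53 CPM per kilobase. Egr2 stood at 0.549 to 1.42, Egr3 at 0.213 to 0.511 and Fosb at 0.0915 to 0.228. In this order Junb stood above Fos, Fosl2 above Egr2 and Egr2 above Egr3 in every pair of mock libraries, and every other pair of neighbours overlapped. The lowest count of any of the 10 genes in a library was 7, for Fosb in mock + NR replicate 4. Jun overlaps the antisense gene Junos, and Junb overlaps Prdx2 on the other strand, and reads of such pairs cannot be told apart here.

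Across the 6 groups, the median of mock was the lowest or second lowest for 9 of the 10 genes, and the third lowest for Jun. The highest median was that of gamma for Egr1, Egr2, Fos, Nr4a1 and Ier2, and that of GCR for Egr3, Fosb and Fosl2. For Jun and Junb it was that of silicon.

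**Figure D1:**
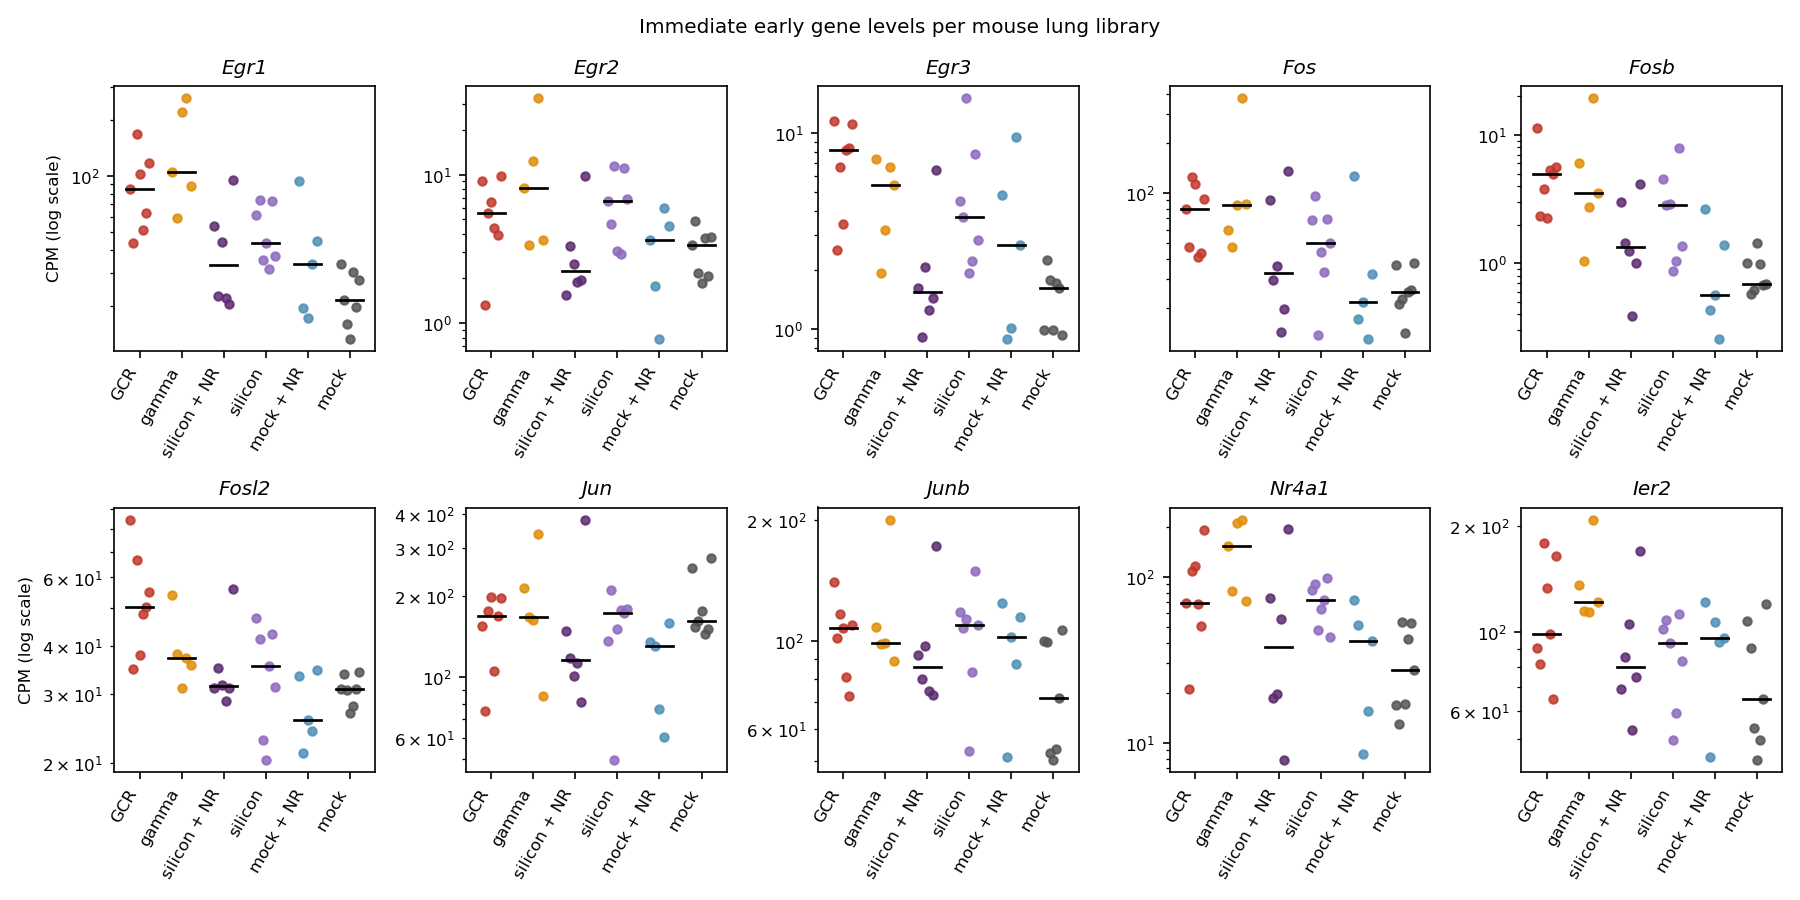
Level of each of the 10 genes in every library (points, CPM, log scale) by group, with a line at the group's median. For Egr1 all GCR points (43.7 to 166 CPM) and all gamma points (59.3 to 261) lie above all mock points (13.3 to 33.6), while the Jun points of the groups overlap.

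The radiation groups were set against mock to ask what each kind of radiation did to the lung. All 3 share the same 7 mock libraries, so their differences are not independent of each other. Relative to mock, 9 of the 10 fold changes were above zero in each of GCR, gamma and silicon, with Jun as the exception in all 3. The median log2 fold change of the 10 genes was 1.24 in GCR, 1.81 in gamma and 1.03 in silicon, beside medians over all 16977 genes tested of -0.06, -0.01 and 0.07. A gene was called at an adjusted p under 0.05 by edgeR's quasi-likelihood test. By that rule 8 of the 10 genes were called higher in GCR, where 8.03% of all genes tested were called higher (16.6% in either direction). Only Egr1 was called in gamma, where 0.0295% of all genes were called higher, and none of the 10 in silicon, where 0.0% were. At an unadjusted p under 0.05 there were 2185 genes in silicon. DESeq2 called 7 of the 10 higher in gamma, beside 102 of all 16940 genes it tested, and 1 in silicon, beside 89. The GCR count was 4 without GCR replicate 2 or 3 or mock replicate 5 or 6 and 5 without GCR replicate 1 or 5 or mock replicate 3, and the gamma count was 2 without gamma replicate 2. For the mean of the 3 radiation groups against mock, Egr1 alone of the 10 was called higher, as were 0.00589% of all genes (0.00589% were called lower and 0.0118% in either direction). That count was 0 without any 1 of silicon replicates 1 and 2, GCR replicates 1 and 3, gamma replicate 3 and mock replicates 1, 2, 3, 4 and 7. By DESeq2 it was 6, beside 62 of 16940 genes called higher. These counts describe values the choice of genes had used.

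The EGR genes encode zinc finger factors. Egr1, induced by serum, stretch and injury in many tissues, lay at 43.7 to 166 CPM in GCR (median 84.7), at 104, 59.3, 220, 261 and 87.9 CPM in gamma replicates 1 to 5, at 31.5 to 74.3 CPM in silicon (median 43.2) and at 13.3 to 33.6 CPM in mock (median 21.4). Every GCR and gamma library stood above every mock library, and 6 of 7 silicon libraries did. The log2 fold change over mock was 2.10 (SE 0.38) in GCR, 2.70 (SE 0.41) in gamma and 1.18 (SE 0.37) in silicon. Egr3, known from muscle spindles and lymphocytes, lay at 2.52 to 11.5 CPM in GCR (median 8.14), at 7.35, 1.93, 3.21, 6.72 and 5.43 CPM in gamma, at 1.94 to 15.03 CPM in silicon (median 3.73) and at 0.937 to 2.25 CPM in mock (median 1.62). Only its GCR libraries all stood above mock, with log2 fold changes of 2.53 (SE 0.52) in GCR, 1.75 (SE 0.54) in gamma and 1.84 (SE 0.50) in silicon. Without silicon replicate 3, a lymphoid-rich library with Egr3 at 15.03 CPM, the silicon value was 1.32. Egr2, known for its part in myelination, lay at 1.32 to 9.72 CPM in GCR (median 5.55) and at 1.86 to 4.84 CPM in mock (median 3.35), and these groups overlapped. Its fold changes were 0.97 (SE 0.46) in GCR, 1.88 (SE 0.50) in gamma and 1.02 (SE 0.46) in silicon.

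Among the FOS genes, Fos, the classic early gene of the AP-1 factor, lay at 41.2 to 125 CPM in GCR (median 80.0), at 59.2, 47.1, 83.9, 376 and 85.6 CPM in gamma, at 13.8 to 95.2 CPM in silicon (median 49.9) and at 14.3 to 37.8 CPM in mock (median 25.02). Its GCR and gamma libraries all stood above mock, and its silicon libraries spanned the mock range. The log2 fold changes over mock were 1.67 (SE 0.52) in GCR, 2.28 (SE 0.57) in gamma and 1.04 (SE 0.51) in silicon. Fosb, the gene of a FOS protein with a long-lived splice form, lay at 2.24 to 11.2 CPM in GCR (median 4.96), at 6.05, 1.05, 2.73, 19.4 and 3.54 CPM in gamma and at 0.571 to 1.43 CPM in mock (median 0.681). Its log2 fold changes were 2.76 (SE 0.63) in GCR, 2.88 (SE 0.68) in gamma and 1.75 (SE 0.61) in silicon. Without gamma replicate 4 the gamma fold changes were 1.92 for Fosb, 1.42 for Fos, 1.13 for Egr2 and 2.34 for Egr1. Fosl2, the gene of the FOS-related FRA2 protein, lay at 34.9 to 84.6 CPM in GCR (median 50.4) and at 26.9 to 34.2 CPM in mock (median 30.9). All GCR libraries stood above mock, with a fold change of 1.03 (SE 0.20), against 0.34 (SE 0.21) in gamma and 0.20 (SE 0.20) in silicon, where the libraries overlapped with mock.

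The JUN genes had smaller fold changes. Jun lay at 75.0 to 197 CPM in GCR (median 169), at 213, 166, 163, 337 and 85.4 CPM in gamma, at 49.6 to 210 CPM in silicon (median 173) and at 145 to 275 CPM in mock (median 162). All groups overlapped, and the log2 fold changes were -0.24 (SE 0.30) in GCR, -0.03 (SE 0.32) in gamma, where it was 0.16 without gamma replicate 5, and -0.36 (SE 0.30) in silicon. Junb, a JUN protein that can restrain Jun, lay at 72.5 to 140 CPM in GCR (median 107) and at 50.2 to 106 CPM in mock (median 71.8), with fold changes of 0.67 (SE 0.23) in GCR, 0.66 (SE 0.25) in gamma and 0.48 (SE 0.23) in silicon. Both companion genes overlapped with mock in GCR and silicon. Nr4a1 lay at 21.1 to 191 CPM in GCR (median 69.8), at 152, 81.8, 211, 220 and 71.5 CPM in gamma and at 12.9 to 53.1 CPM in mock (median 27.6), so that all gamma libraries stood above mock. Its fold changes were 1.45 (SE 0.51) in GCR, 2.17 (SE 0.54) in gamma and 1.11 (SE 0.50) in silicon. Ier2, the gene of a small nuclear protein, lay at 64.7 to 179 CPM in GCR (median 99.0) and at 43.5 to 120 CPM in mock (median 64.9), with fold changes of 0.76 (SE 0.24) in GCR, 0.90 (SE 0.26) in gamma and 0.22 (SE 0.24) in silicon.

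**Figure D2:**
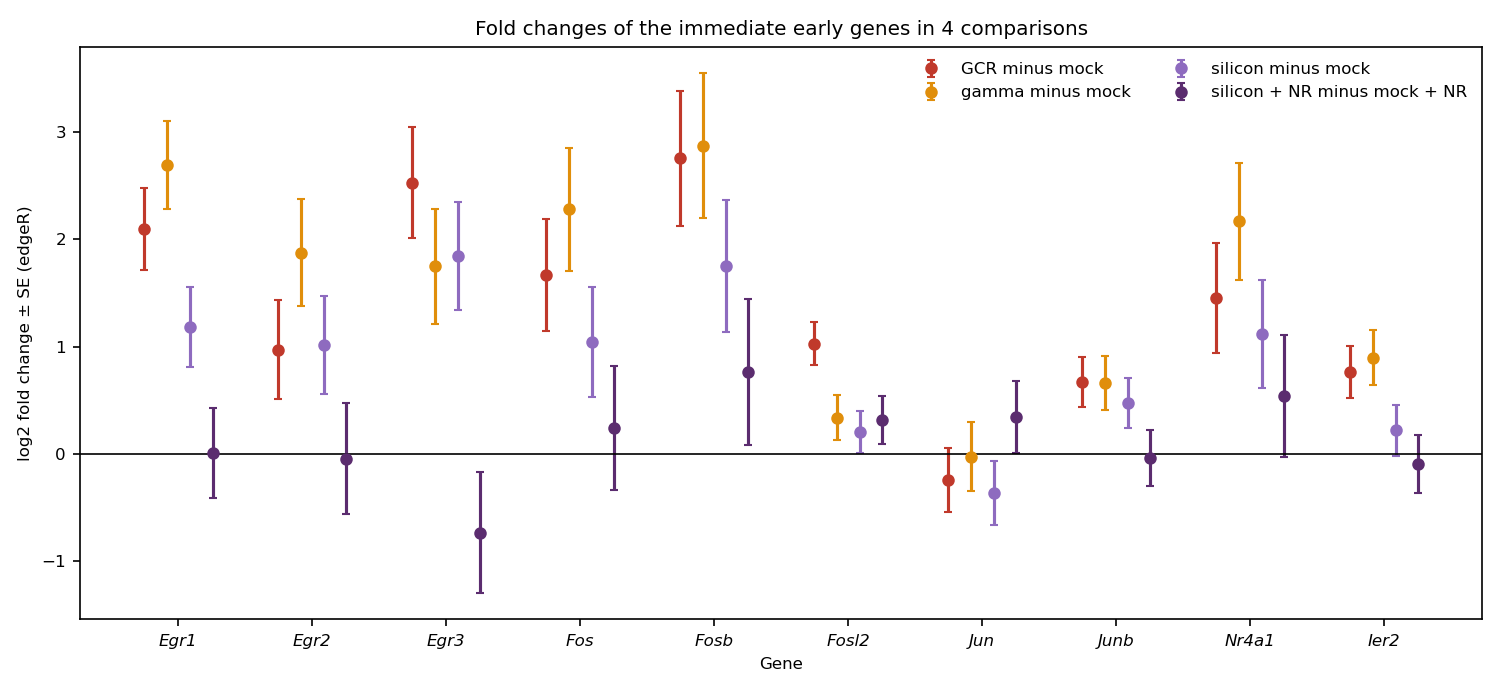
Log2 fold change with its standard error (edgeR, points and bars) of each of the 10 genes in 4 comparisons. In GCR, gamma and silicon against mock every gene but Jun is above zero, and in silicon + NR against mock + NR the points run from -0.73 for Egr3 to 0.76 for Fosb.

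In all, 5 of the 10 genes (Egr1, Egr3, Fos, Fosb and Fosl2) had every GCR library above every mock library, as had 0.306% of all genes tested. In gamma 3 of the 10 did (Egr1, Fos and Nr4a1, beside 0.265% of all genes), and in silicon 0 of the 10 (beside 0.0177%). None of the 10 had every library below every mock library, which 0.348% of all genes had in GCR, 0.583% in gamma and 0.0884% in silicon. Tissue makeup and RNA state moved with these groups. Without the 13 muscle-rich libraries, which left 2 silicon and 3 mock libraries, 0 of the 10 genes and 0 of all 17142 were called in GCR or in gamma. In silicon that fit called 0 of the 10, beside 85 of all genes higher and 640 lower. The Egr1 fold changes were then 1.88 (SE 0.58) in GCR and 2.48 (SE 0.61) in gamma. Without the libraries rich in ribosomal precursor 0 of the 10 and 0 of all 17084 genes were called in GCR, and the Egr1 fold change was 2.32 (SE 0.45). Those GCR libraries, replicates 2, 5 and 6, had the 3 lowest Egr1 levels of their group, at 43.7, 50.9 and 63.4 CPM, where the total behind CPM includes the ribosomal precursor. Without the 2 heart-rich libraries 0 of the 10 and 4 of all 17264 genes were called in gamma. The Fos fold change was then 1.32 (SE 0.57), that of Egr2 0.68 (SE 0.50). The clock gene Arntl, whose level follows the time of day, was at 3.86 to 7.75 CPM in mock replicates 1 to 5 and at 33.4 and 26.7 CPM in mock replicates 6 and 7, against 6.62 to 37.8 CPM in GCR, 9.44 to 32.5 CPM in gamma and 18.2 to 38.8 CPM in silicon. In mock replicates 6 and 7 Egr1 was at 19.6 and 27.4 CPM. By the labels these are also the only 2 female mice of the mock group, so Arntl level and sex cannot be told apart there. Beyond the fits that left libraries out, the part of these differences in the results was not tested.

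Because Jun stayed near its mock level while Fos did not, the balance of the 2 AP-1 partners was read within each library as the ratio of Fos to Jun counts per exon length, a measure chosen after the values were seen and given with no test. It lay at 0.347 to 0.972 in GCR (median 0.701), at 0.376 to 1.51 in gamma (median 0.698), at 0.254 to 0.684 in silicon (median 0.395) and at 0.1102 to 0.234 in mock (median 0.191). All 19 irradiated libraries without NR stood above all 7 mock libraries. The ratios of Egr1 to Jun, Junb to Jun and Fosb to Fos, computed likewise, did not separate the groups in this way. Egr1 to Jun lay at 0.126 to 0.507 in silicon and at 0.0540 to 0.149 in mock, which overlapped. In GCR (0.267 to 0.677) and gamma (0.254 to 0.957) it stood above mock. Junb to Jun and Fosb to Fos overlapped with mock in each radiation group. How many ratios of other genes separate the groups was not counted. With NR the ratio of Fos to Jun lay at 0.173 to 0.827 in silicon + NR (median 0.412) and at 0.180 to 1.27 in mock + NR (median 0.295). Of these, 5 of 6 silicon + NR libraries and 4 of 5 mock + NR libraries, which received no radiation, also stood above the highest mock library.

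**Figure D3:**
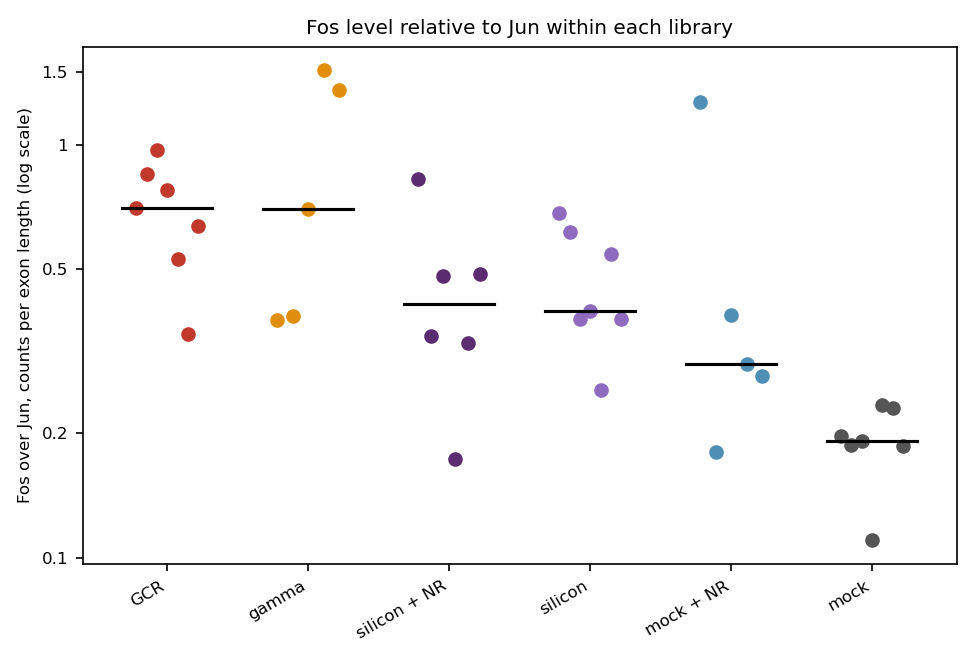
Ratio of Fos to Jun counts per exon length in every library (points, log scale) by group, with a line at the group's median. The 7 mock points (0.1102 to 0.234) lie below all GCR, gamma and silicon points, and the 2 NR groups reach from within the mock range to 0.827 and 1.27.

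NR was given to ask whether it changes the lung's response. Silicon + NR against mock + NR shares no library with the comparisons that chose the genes, so it was tested. Egr1 lay at 20.6 to 94.7 CPM in silicon + NR (median 33.2), and at 94.0, 19.5, 17.1, 33.4 and 44.7 CPM in mock + NR replicates 1 to 5. Fos lay at 14.4 to 136 CPM in silicon + NR (median 32.8), and at 126, 17.3, 21.9, 13.1 and 32.2 CPM in mock + NR. For all 10 genes the 2 groups overlapped, and 0.0295% of all genes had every silicon + NR library above, and 0.0295% below, every mock + NR library. The log2 fold changes ran from -0.73 (SE 0.56) for Egr3 to 0.76 (SE 0.68) for Fosb, with a median of 0.13, and 6 of the 10 were above zero. None of the 10 was called (edgeR adjusted p = 1.00 for each), nor was any of the 16977 genes, of which 367 had an unadjusted p under 0.05 and DESeq2 called 1. The Egr1 fold change was 0.0099 (SE 0.42). Single libraries moved these values. The median ran from -0.17 without silicon + NR replicate 6 to 0.42 without mock + NR replicate 1, and was -0.050 without mock + NR replicate 2. Egr3 stood at -0.13 without mock + NR replicate 4 and at -1.29 without silicon + NR replicate 6. Fosb stood at 0.45 without silicon + NR replicate 1 and at 1.48 without mock + NR replicate 1. Nr4a1 stood at 0.54 (SE 0.57), and at -0.050 without silicon + NR replicate 6.

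The effects of NR alone are given side by side as descriptions. In mock + NR against mock, 8 of the 10 fold changes were above zero (median 0.41), among them Egr3 at 1.39 (SE 0.53) and Egr1 at 0.95 (SE 0.40), and Jun stood at -0.63 (SE 0.32). Without mock + NR replicate 1 the median was 0.0081 and Egr1 stood at 0.38. Without mock + NR replicate 4, a lymphoid-rich library with Egr3 at 9.58 CPM, Egr3 stood at 0.76. In silicon + NR against silicon, 4 of the 10 were above zero (median -0.13), with Egr3 at -1.19 (SE 0.52) and Egr2 at -0.91 (SE 0.47). Without silicon + NR replicate 6 the median was -0.50, with Egr3 at -1.81 and Egr2 at -1.44, and without silicon + NR replicate 5 the median was 0.033. Without silicon replicate 3, a lymphoid-rich library, Egr3 stood at -0.72. All 10 genes overlapped between mock + NR and mock, where 0.442% of all genes had every library above and 0.383% below. In each of these comparisons edgeR called 0 of the 10 genes and 0.0% of all genes tested. At an unadjusted p under 0.05 it had 2875 genes in mock + NR against mock and 2171 in silicon + NR against silicon. DESeq2 called 0 of the 10 in each, beside 591 and 353 of 16940 genes in that order. Without the muscle-rich libraries edgeR called 0 of the 10 in each, beside 425 and 179 of 17142 genes. Whether the effect of silicon differs with NR was not tested.

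Single libraries stood at the ends of several groups at once. Silicon + NR replicate 6 had the highest level of its group for 10 of the 10 genes, gamma replicate 4 for 8 and mock + NR replicate 1 for 6. At the other end, GCR replicate 2 and mock replicate 4 were each the lowest of their group for 6 of the 10. These 2 libraries had the highest levels of ribosomal precursor RNA (Rn45s, 216521 and 200006 CPM). That RNA is part of the library total by which CPM is divided. Spread beyond counting error was large for most of the genes. The biological coefficient of variation was 0.726 for Fosb, 0.634 for Fos, 0.621 for Nr4a1 and 0.612 for Egr3, against a median of 0.332 over all genes tested, and 7 of the 10 genes exceeded that median. Fosl2, Junb and Ier2, at 0.262, 0.307 and 0.317, did not.

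No difference by sex passed the test in the 10 genes. The female minus male log2 differences ran from -0.10 (SE 0.12) for Fosl2 to 0.33 (SE 0.32) for Nr4a1, with edgeR adjusted p = 1.00 for each, while 10 of all genes tested (0.0589%) were called. Without silicon + NR replicate 6 the Nr4a1 difference was 0.017. The mean radiation effect in females minus that in males was 0.92 (SE 1.09) for Fosb, or 0.38 without gamma replicate 4, and 0.0029 (SE 0.68) for Egr1. Gamma replicate 5, whose Xist and Ddx3y levels went against its label, counts as female in these fits. None of the 10 was called (edgeR adjusted p = 1.00 for each), nor any of all genes tested (0.0%), of which 183 had an unadjusted p under 0.05 and DESeq2 called 2.

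The genes varied together from mouse to mouse once group and sex were removed from log2 CPM, which takes out the group means that the choice of genes had used. Over the 37 libraries, 44 of the 45 pairs had a positive Pearson's r (median 0.468), and 27 had an adjusted p under 0.05 by a two-sided permutation test within groups (100000 resamples, Benjamini-Hochberg over 45 pairs), as had 27 by Spearman's rho. The same counts were not made for pairs of other genes. Tissue makeup was not removed, and its part in these values was not tested. Egr1 and Fos went together most closely, with r = 0.85 and rho = 0.832 (permutation p = 1e-05 for each, the smallest these resamples can give, adjusted p = 0.000225), and r = 0.798 without the 2 libraries farthest from the median of Egr1. Egr2 and Egr3 had r = 0.665 and rho = 0.632 (permutation p = 2e-05 and 0.00028, adjusted p = 0.0003 and 0.00315), and r = 0.629 without the 2 farthest. Nr4a1 had low values with Junb (r = 0.109, rho = 0.0486, permutation p = 0.564 and 0.798, adjusted p = 0.577 and 0.835) and with Ier2 (r = 0.0589, rho = -0.0431, permutation p = 0.774 and 0.822, adjusted p = 0.774 and 0.841). The lowest value was that of Egr3 with Jun (r = -0.115, rho = 0.0204, permutation p = 0.545 and 0.911, adjusted p = 0.571 and 0.911), which was 0.211 without the 2 farthest libraries. Each library gives all 10 values, and its total count had r = 0.0829 with the mean of the 10 genes.

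**Figure D4:**
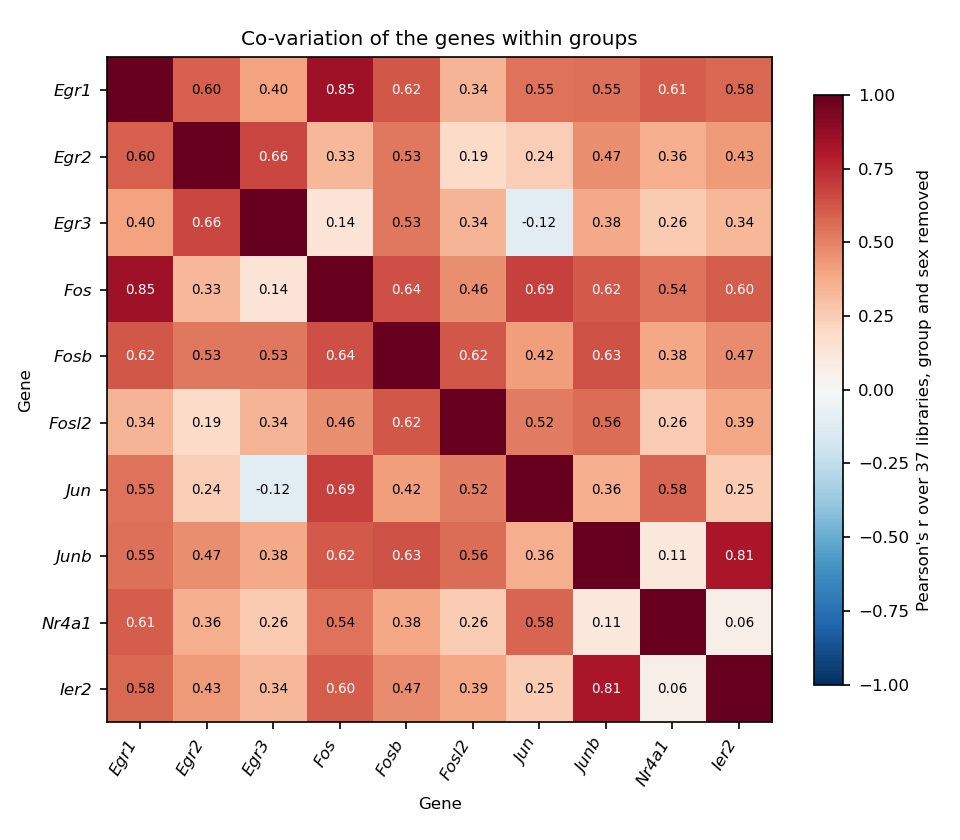
Pearson's r of each pair of the 10 genes over 37 libraries, with group and sex removed from log2 CPM (colour and number). The highest value is that of Egr1 with Fos (0.85), and Egr3 with Jun is the 1 pair below zero (-0.12).

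The 10 other genes most alike in this variation, by r with the mean of the standardised levels over 37 libraries, were Atf3 (0.823), Apold1 (0.804), Nr4a2 (0.748), Zfp36 (0.747), Klf6 (0.743), Thbs1 (0.737), Hspa1a (0.713), Ctgf (0.711), Nr4a3 (0.710) and Hspa1b (0.708). The median over the 16967 other genes was -0.0026. Without silicon + NR replicate 6 and gamma replicate 4, the 2 libraries farthest out in that mean, r of the 10 named genes ran from 0.599 (Nr4a3) to 0.725 (Atf3). Of these 10 genes, Atf3, Nr4a2, Klf6 and Nr4a3 are transcription factors, and Hspa1a and Hspa1b encode inducible heat shock proteins. Over a list of 7 heat shock genes the median r in all libraries was 0.193, from 0.0614 for Hspb1 to 0.713 for Hspa1a. Hspa1a was at 158 CPM in silicon + NR replicate 6, the library with the highest level of all 10 early genes in its group, and at 5.11 to 65.5 CPM in the rest of that group.

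Other genes of the pathway were read from 5 lists, made with earlier results of these data known. In GCR against mock, 14 of their 74 tested genes were called higher and 2 lower, beside 8.03% and 8.52% of all genes tested, and none was called in gamma, silicon or silicon + NR against their controls. Without the muscle-rich libraries 0 of 17142 genes were called in GCR (3235 at an unadjusted p under 0.05), and without those rich in ribosomal precursor 0 of 17084 (2748 at an unadjusted p under 0.05), so none of the GCR calls named here was made in those fits. Genes named from these lists were picked by their p in GCR or gamma against mock, so their values are descriptions with no p. Of 15 other early transcription factors 3 were called higher, namely Csrnp1 (log2 fold change 1.96, SE 0.31), Klf2, a factor of endothelial cells (0.96, SE 0.29), and Nr4a2 (0.86, SE 0.28). The median of the 15 was 0.58, and 12 were above zero. Of 16 effector genes 10 were above zero and 3 were called higher, Areg, a ligand of the EGF receptor (2.15, SE 0.41), Ptgs2, the inducible cyclooxygenase (1.87, SE 0.38), and Thbs1, a matrix protein (1.45, SE 0.37). Areg lay at 6.54 to 34.1 CPM in GCR and at 2.41 to 7.89 CPM in mock. Of 16 feedback inhibitors 13 were above zero and 5 were called higher, among them Zfp36l1 and Zfp36, which speed the decay of short-lived RNAs (1.14, SE 0.22, and 1.03, SE 0.23), Spry2, a brake on receptor signalling (1.22, SE 0.25), and Trib1 (1.07, SE 0.21). Of 18 upstream regulators 10 were above zero and 3 were called higher, the kinase genes Mapk3 (1.09, SE 0.26), Mapk8 (0.71, SE 0.15) and Rps6ka3 (0.52, SE 0.14). The kinase gene Map2k1 was called lower, by 0.72 (SE 0.20). Of 9 AP-1 partners 3 were above zero and 0 were called higher, and Atf7 was called lower, by 0.38 (SE 0.10). In gamma against mock, Atf3 stood at 1.53 (SE 0.52) and Btg2, an antiproliferative gene, at 0.92 (SE 0.24), and neither was called.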

How the data were processed

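Trizol was used for RNA, SMART-seq v4 for cDNA and Nextera XT for libraries, per the labels' protocols, and strand is not marked. Per the submitters' processing notes, the build was mm10 and the tools included STAR 2.5.2, HTSeq 0.13.5 and Trimmomatic 0.36, and their settings were not stated in these sources. The deposited values are whole read counts by gene symbol for 37 libraries, not normalized by the authors. Counts per 1000000 (CPM) were computed here from library totals. Of 24421 symbols 23376 (95.7%) matched GENCODE M21 (mm10), the source of exon lengths and overlaps, and promoter windows are those of RefSeq.

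The 10 genes and all gene lists were chosen with earlier results of these data known. Groups and sex came from the labels, and replicate numbers, given in accession order, only name a mouse. No pair of libraries within a group matched within sampling noise, with chi-square over its degrees of freedom from 19.2 to 1003, and counts from amplified cDNA without molecular identifiers are not independent molecules. Nothing in the labels says how mice were housed or processed in batches, so p-values measure the spread between these mice.

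Fold changes and tests came from edgeR 4.0.16 (R 4.3.3) with TMM scaling and the quasi-likelihood test, on 16977 genes left by filterByExpr, in 1 model of 6 groups and sex over all libraries. A model of 12 group-by-sex means gave the interaction. All p-values were adjusted over all genes tested by the Benjamini-Hochberg method, with a threshold of 0.05, and the steps were tested on simulated data. Correlations used log2 CPM with a prior count of 2, computed here. Named were all 10 genes, from each other list the 3 genes of smallest p in GCR and the 3 in gamma against mock, and the 10 genes most alike in variation. Examples were taken from these, and other genes so named are not reported here. Alternatives were DESeq2 1.42.0, limma 3.58.1 voom with quality weights, RLE scaling, no count filter, no sex term, only the groups compared, leaving out each library, and leaving out libraries over 1000 CPM of Acta1, 100000 of Rn45s, 10000 of Nppa or 100 of Ccl19.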

Additional observations from a re-analysis of the deposited data

Results flagged for a closer look

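In groups of 4 to 10 libraries, a library was singled out where its gap to the nearest other exceeded Dixon's 95% critical value. Among 60 sets of CPM values (10 genes in 6 groups) this held for 12, all at the high end. For independent, normally distributed values chance gives about 1 in 20, or about 3. The CPM values were not log-transformed and the 10 genes vary together, so that rate does not hold here and no conclusion is drawn from the count. Silicon + NR replicate 6 accounted for 6 of them, with Egr2 at 9.85 CPM, Egr3 at 6.44, Fosl2 at 56.2, Jun at 381, Junb at 173 and Nr4a1 at 194 CPM. Gamma replicate 4, a heart-rich library, accounted for 4, with Fos at 376 CPM, Fosb at 19.4, Junb at 201 and Ier2 at 208 CPM. The others were Fos at 126 CPM in mock + NR replicate 1 and Fosb at 11.2 CPM in GCR replicate 1. The part of tissue makeup in these values was not tested.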

How the results depend on the processing

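The number of the 10 genes called moved with the libraries in the fit and with the tool. In GCR against mock it was 8, and 4 to 8 when single libraries were left out. It was 0 without the muscle-rich or without the high-Rn45s libraries, where 0 of all genes were called. It was 4 without GCR replicate 2 or 3 or mock replicate 5 or 6, and 5 without GCR replicate 1 or 5 or mock replicate 3. In gamma against mock it was 1, and 7 by DESeq2, 0 with only the groups compared, 0 without the muscle-rich or the heart-rich libraries and 1 to 2 when single libraries were left out. Of all genes, DESeq2 called 102 higher in gamma and the fit without the heart-rich libraries 4. The gamma fits with only the groups compared and without the muscle-rich libraries called 0. The gamma median of 1.81 was 1.00 by voom with quality weights and 1.02 without the heart-rich libraries. In silicon against mock DESeq2 called 1 of the 10 higher, beside 89 of all genes. The silicon fit without the muscle-rich libraries called 0 of the 10, beside 85 genes higher and 640 lower. In mock + NR against mock and silicon + NR against silicon, voom called 0 of the 10, beside 994 and 4207 of all genes. For the mean of the 3 radiation groups against mock the number of the 10 called was 1, and 6 by DESeq2, 5 with only the groups compared, 0 without the muscle-rich, high-Rn45s or lymphoid-rich libraries and 0 to 1 when single libraries were left out. Of all genes, DESeq2 called 62 higher there, and the fit with only the groups compared called 6 higher. The fit without the muscle-rich libraries called 3 of all genes higher and 167 lower for this mean, and that without the high-Rn45s libraries called 0. Several values changed sign, among them Nr4a1 in silicon + NR against mock + NR (0.54, and -0.38 by voom and -0.050 to 0.963 when single libraries were left out, lowest without silicon + NR replicate 6 and highest without mock + NR replicate 1), and in gamma against mock Arc (3.18, and -0.19 by voom and -0.59 without the heart-rich libraries) and Elk4 (-0.44, and 0.017 by voom). The median in silicon + NR against mock + NR, 0.13, was -0.065 by voom and -0.11 without the muscle-rich libraries, and others near zero changed sign too. The cause was not tested, beyond the fewer libraries that some fits hold. The median r of the 45 pairs was 0.462 without the 2 farthest libraries and 0.465 with a prior count of 0.5. The interaction with sex could not be fitted without the muscle-rich libraries. No paired analysis was possible because replicate numbers follow accession order and pair no mice. Fosb, with counts down to 7, is the gene most limited by depth.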
